A study of Mus musculus with 6 samples.

Results

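The miR-101 family of the mouse, made up here of the hairpins Mir101a, Mir101b and Mir101c, was described in bone marrow monocytes (BMMs). Its members were selected by name from 1174 miRNA hairpins, with earlier counts of these samples known, and all small RNA reads of 18 nt or more that match these 3 hairpins were sorted by arm, by first base and by 3′ end. The cells came from wild-type C57BL/6 mice and were cultured with PBS alone (control) or with 5 pg/ml LPS, the endotoxin of Gram-negative bacteria, for 4 h, and no cell carried a transgene or a deletion. Each group held 3 samples. The labels do not say whether these came from separate mice or cultures, so p-values cover only the spread between these samples, which may be technical.

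A miRNA is cut from a hairpin in the nucleus by Drosha and in the cytoplasm by Dicer, and one arm of the resulting duplex (5p or 3p) is loaded into an Argonaute protein. Its bases 2 to 8, the seed, pair with target mRNAs, so a shift of the first base changes the seed, whereas the 3′ end can be trimmed or extended without a change of seed. miR-101 is known for lowering Ezh2, the methyltransferase of histone H3 at lysine 27, and in macrophages Dusp1, a phosphatase that switches off p38 and JNK after LPS, as well as Abca1, which exports cholesterol from the cell.

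The family contributed 129690 of the hairpin reads in the 6 samples, in 326 distinct sequences. Its share of the hairpin reads was 0.794%, 0.523% and 0.700% in control replicates 1 to 3 and 0.843%, 0.426% and 0.707% in LPS replicates 1 to 3. The samples held 2201520 to 17691405 reads, and the groups overlapped at every arm of the family. LPS replicate 2 had most reads, and 18.6% of its different sequences occurred once, against 67.1% to 74.6% in the others. The 4 miRNAs taken here as markers of myeloid and blood cells summed to 156733 to 198733 reads per 1000000 hairpin reads (RPM) in the 6 samples. Most of each sum was miR-21a-5p, with 122793 to 164339 RPM, followed by miR-142-5p with 18107 to 27085 RPM. Whether miR-21a-5p is particular to these cells was not tested. The other markers of this set, miR-223-3p and miR-142-3p, had 5607 to 6089 RPM and 3741 to 7757 RPM. The 13 markers of other cells summed to 84.5 to 110 RPM in the control samples and 86.5 to 210 RPM in the LPS samples. The highest sum was that of LPS replicate 2, and 3 of the 13 markers, miR-144-3p of red cell precursors, miR-1a-3p of muscle and miR-124-3p of neurons, had no read in any sample. The part of these other cells in the results below was not tested.

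The hairpins are given first, because the position of every read is read against them. The capitals mark the mature parts that RefSeq annotates.
Mir101a: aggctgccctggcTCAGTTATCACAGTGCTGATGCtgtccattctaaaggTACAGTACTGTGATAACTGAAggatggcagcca
Mir101b: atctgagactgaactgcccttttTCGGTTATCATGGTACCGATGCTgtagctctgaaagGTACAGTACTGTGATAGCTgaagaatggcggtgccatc
Mir101c: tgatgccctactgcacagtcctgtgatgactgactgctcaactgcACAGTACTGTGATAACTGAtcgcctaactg
In GRCm38, Mir101a lies on the minus strand at chr4:101346945-101347027, inside an exon (101346531 to 101347103) of the long noncoding RNA E130102H24Rik. Mir101b lies on the plus strand at chr19:29135279-29135375, in an intron of Rcl1, a gene of ribosomal RNA processing, between an exon that ends at 29134503 and one that starts at 29143142. Mir101c lies on the minus strand at chr9:3038669-3038743 and within no other annotated gene. Counted from the T at which the annotated miR-101a-3p starts, the 3p arms of Mir101a and Mir101b differ by A16G and G23A, the base of Mir101a written first.

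The mature sequences of RefSeq (GRCm38.p6) are shown with the seed in capitals, because the members differ in their annotated first base.
mmu-miR-101a-3p: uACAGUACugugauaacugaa
mmu-miR-101b-3p: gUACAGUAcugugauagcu
mmu-miR-101c: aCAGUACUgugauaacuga
mmu-miR-101a-5p: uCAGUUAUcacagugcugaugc
mmu-miR-101b-5p: uCGGUUAUcaugguaccgaugcu
mmu-miR-144-3p: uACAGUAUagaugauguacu
No seed is shared among these annotated forms. The 3 annotated miR-101 starts are neighbouring bases (G, T and A) of one stretch, and the seed of miR-144-3p, a miRNA of red cell precursors, differs from that of miR-101a-3p in its last base only. miR-144-3p had no read in any sample, which allows up to 0.275 RPM in the deepest sample and 2.00 RPM in the shallowest (3 counts of the hairpin reads). miR-144-5p had 0, 1 and 0 reads in the control samples and 1, 1 and 1 in the LPS samples.

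miR-101a-3p was the main product. It had 7255, 4576 and 6238 RPM in control replicates 1 to 3 and 7690, 3701 and 6298 RPM in LPS replicates 1 to 3, and ranked 24th by mean RPM among the 973 arms with reads. Replicate 1 of each group was the highest and replicate 2 the lowest, and the groups overlapped. The means were 6023 ± 1352 RPM (SD, n = 3) in control and 5896 ± 2024 RPM (SD, n = 3) in LPS samples.

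miR-101b-3p had 641, 622 and 726 RPM in the control samples and 713, 532 and 735 RPM in the LPS samples, rank 73 of 973. Its highest and lowest samples were both LPS samples, so the control range lay inside the LPS range. Within each library, miR-101a-3p had 6.96 to 11.3 times the reads of miR-101b-3p, and made up 89.7% ± 1.79 (SD, n = 6) of the sum of both. The lowest level of miR-101a-3p in any sample, 3701 RPM, lay above the highest of miR-101b-3p, 735 RPM.

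The opposite arms were scarce. miR-101a-5p had 35.98, 29.76 and 35.51 RPM in the control samples and 29.35, 26.54 and 38.03 RPM in the LPS samples, from 51 to 290 reads a sample, and miR-101a-3p had 139 to 262 times as many reads. Most miR-101a-5p reads began at a C, 1 base inside the annotated T start, at a mean of 85.7% ± 5.15 (SD, n = 6), and the commonest of them, cagttatcacagtgctgatgc, held 64.9% of the arm. That shifted form lacks the annotated first base and so has the seed moved by 1 base. miR-101b-5p had 2, 0 and 1 reads in the control samples and 0 reads in each LPS sample.

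**Figure D1:**
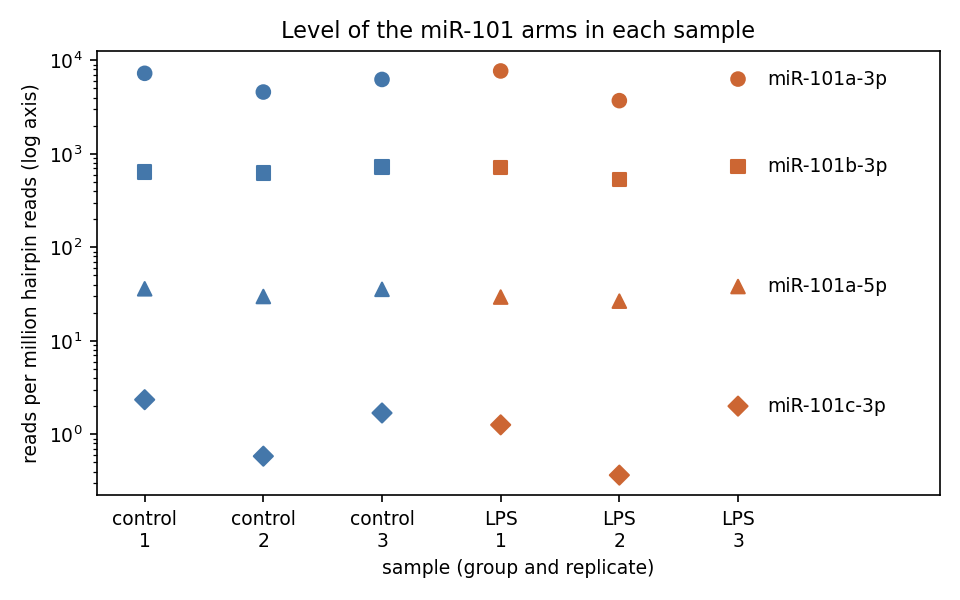
Reads per 1000000 hairpin reads (log axis) of 4 miR-101 arms in the 3 control (blue) and 3 LPS (orange) samples, 1 point a sample. The arms keep the order miR-101a-3p, miR-101b-3p, miR-101a-5p and miR-101c-3p in all 6 samples, and the groups overlap at each arm.

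Mir101c was hardly detectable as a source of its own. Reads placed on it alone numbered 22 in all, in 11 distinct sequences, with 6, 1 and 4 reads in the control and 4, 4 and 3 in the LPS samples. All 22 were within 1 base of the miR-101a-3p sequence, and cannot be told apart from miR-101a-3p reads with 1 changed base. Another 8 reads, in 3 distinct sequences, ran 2 bases past the shared stretch into letters that Mir101c also holds, but all of them began with bases of Mir101a that Mir101c lacks, and 0 were placed on Mir101c. A further 74 reads (0.0641% of the arm) fitted Mir101a and Mir101c alike and were counted with Mir101a. Reads of exactly the annotated miR-101c sequence, which Mir101a also holds, numbered 6 in all samples together. Mir101c-5p had no read.

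The 3p arms began at 2 neighbouring bases. In miR-101a-3p, 64.2%, 58.9% and 58.3% of the reads in control replicates 1 to 3 and 64.1%, 60.2% and 57.8% in LPS replicates 1 to 3 began at the annotated T. The G just before it began 35.5%, 40.8% and 41.4% of the control and 35.6%, 39.5% and 42.1% of the LPS reads. The A after the T, the annotated start of miR-101c, began 0.0636% to 0.114%.

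miR-101b-3p had the opposite balance. Its G start, which RefSeq annotates, held 62.2%, 64.0% and 61.2% of the reads in the control and 61.9%, 62.7% and 63.4% in the LPS samples, and its T start held 34.7% to 38.0% in the 6 samples. Its A start held 0.620% to 1.13%, more than in miR-101a-3p. Both members thus gave reads with both seeds, and in all 6 samples the T start led in miR-101a-3p and the G start in miR-101b-3p. Over both 3p arms, 58.1% ± 2.99 (SD, n = 6) of the reads carried the T-start seed ACAGTAC and 41.5% ± 2.99 the G-start seed TACAGTA. miR-101b-3p supplied 6.51% ± 1.26 of the T-start reads and 15.5% ± 2.09 of the G-start reads.

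The T-start share of miR-101a-3p ranged over 6.42 percentage points in the 6 samples. Samples with the same replicate number differed by 0.0889 to 1.31 points between control and LPS, and the widest 95% Wilson interval of a sample was 2.18 points (counting error only).

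**Figure D2:**
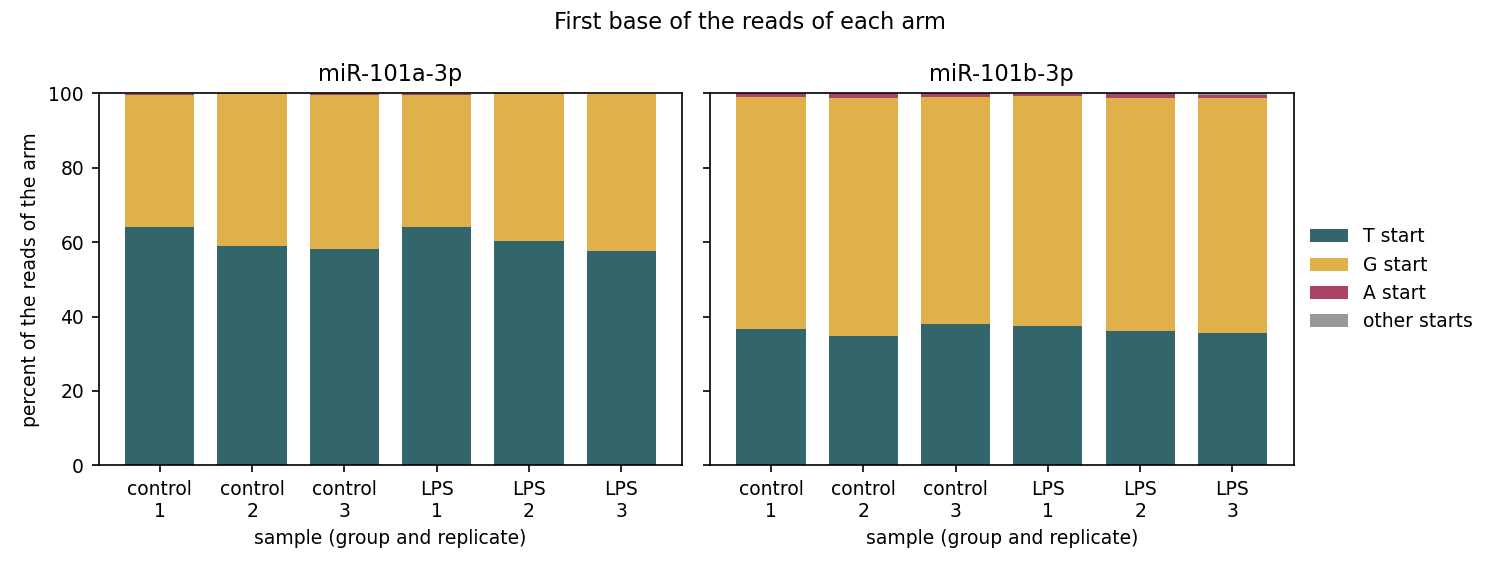
Share of the reads of miR-101a-3p (left) and miR-101b-3p (right) by first base, in percent of the arm, with 1 bar a sample and T, G, A and other starts stacked. T starts lead in miR-101a-3p (57.8% to 64.2%) and G starts in miR-101b-3p (61.2% to 64.0%) in all 6 samples.

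A second start of this size was uncommon among abundant miRNAs. Over the 78 arms that averaged 500 RPM or more, the median share of the second commonest start was 0.710%, and 14 arms had 10% or more. miR-101a-3p, at 39.2%, ranked 3rd and miR-101b-3p, at 36.4%, ranked 5th, below a highest value of 46.7% in miR-140-3p. These ranks describe arms that were picked with their ends known, and carry no test.

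The end variants show where the arms stop. The 7 commonest miR-101a-3p reads and the 4 commonest miR-101b-3p reads are given because they hold most of each arm, with capitals for 3′ bases that do not match the hairpin.
miR-101a T start, CT tail: tacagtactgtgataactgaCT
miR-101a G start, 22 nt: gtacagtactgtgataactgaa
miR-101a G start, 21 nt: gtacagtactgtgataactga
miR-101a T start, T tail: tacagtactgtgataactgaaT
miR-101a T start, annotated form: tacagtactgtgataactgaa
miR-101a T start, 22 nt: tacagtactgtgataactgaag
miR-101a T start, CC tail: tacagtactgtgataactgaCC
miR-101b G start, 21 nt: gtacagtactgtgatagctga
miR-101b G start, 20 nt: gtacagtactgtgatagctg
miR-101b G start, 22 nt: gtacagtactgtgatagctgaa
miR-101b T start, 22 nt: tacagtactgtgatagctgaag
The commonest miR-101a-3p read was not the annotated one. The T-start read with a CT tail made up 26.25%, 23.28% and 21.02% of the arm in the control and 24.88%, 20.72% and 20.13% in the LPS samples, or 767 to 1913 RPM. Replicate 1 of each group was the highest. The whole CT-ended read was found in 0 of 141767 GENCODE M21 transcripts, and whether it matches another place in the genome was not examined, so its last bases are called a tail only against the Mir101a hairpin. The G-start read of 22 nt followed with 16.4% ± 1.80 (SD, n = 6), the G-start read of 21 nt with 12.6% ± 0.828, and the T-start read with a T tail with 11.5% ± 1.48. The annotated miR-101a-3p sequence itself held 7.05% ± 0.547.

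In all, miR-101a-3p had 189 distinct reads, of which 14 had a mean share of at least 1% of the arm and together held 94.1% of it. Of these 14, 8 began at T and 6 at G, and 7 ended in unmatched bases. miR-101b-3p had 107 distinct reads, and 15 of them held 93.1% of the arm. Its commonest read, the G-start read of 21 nt, had 21.6% ± 1.69 (SD, n = 6), and the annotated sequence of 19 bases had 3.26% ± 0.792.

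The tails went with the first base. Of the T-start reads of miR-101a-3p, 23.8% ± 2.75 (SD, n = 6) matched the hairpin to their end, 48.1% ± 2.66 had a tail led by C, 21.8% ± 2.05 a tail of T only and 6.00% ± 0.703 a tail of A only. Of the G-start reads, 82.5% ± 0.949 matched to their end and 9.79% ± 0.787 had a tail led by C. The ranges did not overlap between the starts: 45.1% to 51.1% of T-start reads and 8.66% to 10.9% of G-start reads had a C-led tail in the 6 samples.

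The C-led tails also differed in form. A CT tail ended 37.6% ± 2.68 of the T-start reads and 0.517% ± 0.136 of the G-start reads, whereas a single C ended 3.21% ± 0.237 of the T-start and 9.13% ± 0.879 of the G-start reads. A CC tail ended 7.08% ± 0.506 of the T-start reads. After the 20 matched bases of the T-start read, the hairpin goes on with A and not with C.

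miR-101b-3p had fewer such tails than miR-101a-3p. C-led tails ended 2.07% ± 0.686 (SD, n = 6) of its T-start and 0.714% ± 0.163 of its G-start reads. Tails of T only, in contrast, ended 20.4% ± 2.21 of its T-start reads, a value inside the range of 19.1% to 23.9% of the T-start reads of miR-101a-3p, and 7.63% ± 0.606 of its G-start reads. The T-start reads of both members thus had more T tails than their G-start reads in all 6 samples.

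**Figure D3:**
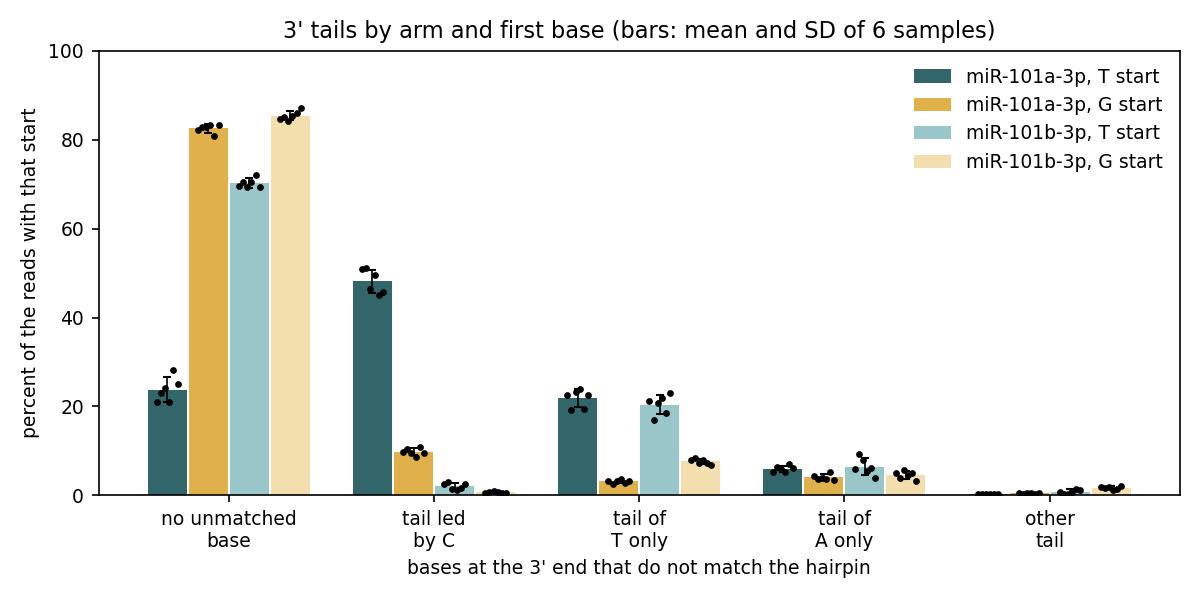
Share of reads, in percent of the reads with that first base, by the kind of unmatched 3′ bases, for T-start and G-start reads of miR-101a-3p and miR-101b-3p (bars show the mean and SD of 6 samples, points the samples). Tails led by C reach 48.1% in the T-start reads of miR-101a-3p and 9.79%, 2.07% and 0.714% in the other 3 classes.

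Read length followed the same split. Among T-start reads of miR-101a-3p, 80.0% ± 1.44 (SD, n = 6) were 22 nt long and 14.2% ± 1.40 were 21 nt long. Among its G-start reads, 51.8% ± 2.08 were 22 nt and 32.5% ± 1.29 were 21 nt long. In miR-101b-3p the T-start reads again centred on 22 nt (54.4% ± 3.24), and the G-start reads on 21 nt (35.3% ± 2.74). These lengths include unmatched bases. G-start reads have 1 base more at the 5′ end. Where both match the hairpin to their end, a G-start read stops 1 base earlier than a T-start read of equal length. Tailed reads differ, as the commonest T-start read of 22 nt matched the hairpin over 20 bases and ended in CT.

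**Figure D4:**
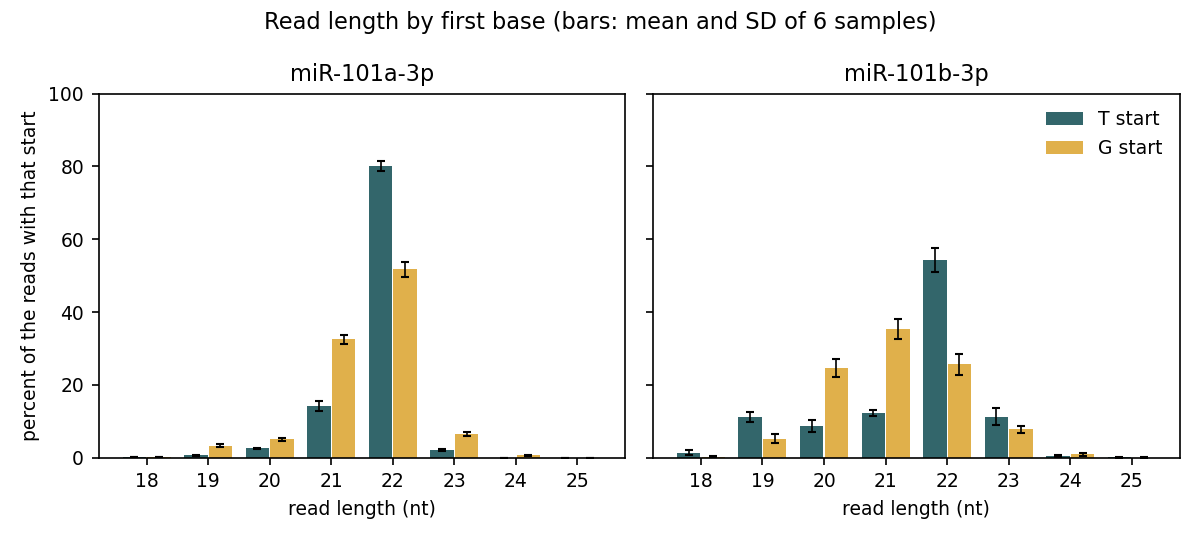
Read length in nt against the share of reads with that first base, in percent, for miR-101a-3p (left) and miR-101b-3p (right), as mean and SD of 6 samples. The T-start reads of miR-101a-3p gather at 22 nt (80.0%), and the G-start reads spread over 21 and 22 nt.

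Set beside the other abundant arms, miR-101a-3p stood out by its CT tail rather than by having tails. Of the 78 arms with at least 500 RPM, the median share of reads with unmatched 3′ bases was 13.1% and 48 arms had 10% or more, and miR-101a-3p ranked 7th with 53.3% and miR-101b-3p 27th with 20.7%. For the CT tail the median was 0.0233%, and miR-101a-3p, with 23.1%, was the highest of the 78 and the 1 arm of them above 10%. miR-101b-3p ranked 3rd for the CT tail, with 0.472%. For all tails led by C the median was 0.167%, and miR-101a-3p ranked 2nd, with 33.1%, and miR-101b-3p 6th, with 1.24%. The highest was miR-3963-5p, where 100% of the reads had unmatched bases and 99.9% a tail led by C. Whether those reads come from that hairpin was not tested. No test was made of these ranks.

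**Figure D5:**
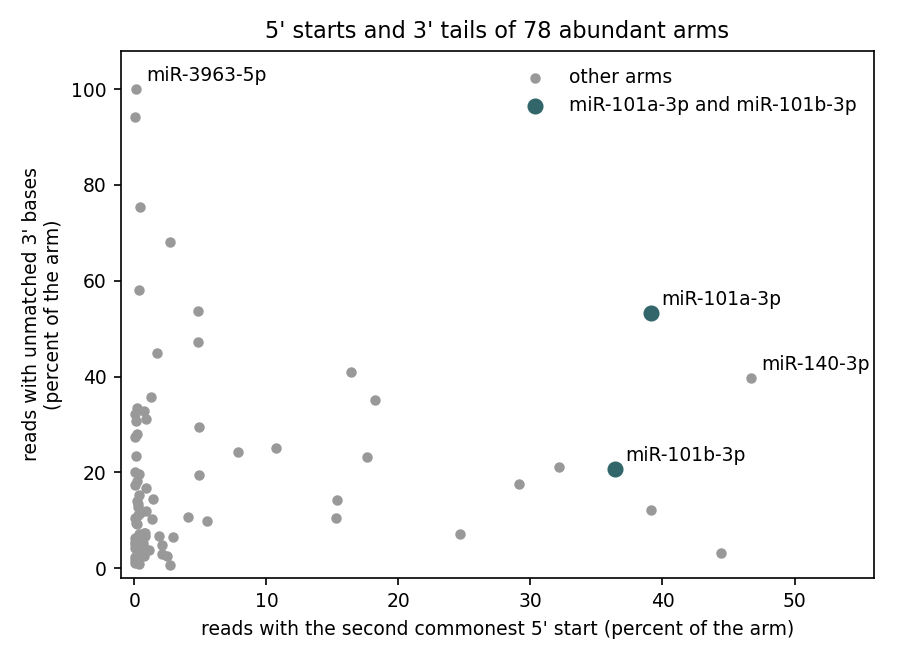
Share of reads with the second commonest 5′ start against the share with unmatched 3′ bases, each in percent of the arm, for 78 arms with a mean of at least 500 RPM (1 point an arm, mean of 6 samples). miR-101a-3p lies at 39.2% and 53.3% and miR-101b-3p at 36.4% and 20.7%, while the median arm has 0.710% and 13.1%.

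LPS was compared with control over all 319 arms that passed edgeR's filter on low counts, to ask whether the super-low dose changed the level of the family within 4 h. In edgeR's quasi-likelihood fit, 0 of the 319 arms (0%) passed a Benjamini-Hochberg adjusted p of 0.05, and 0 of the 3 family arms tested. Before adjustment 7 arms had a p under 0.05 with a higher and 1 with a lower level in LPS samples, none of them of the family, and DESeq2 also called 0. The log2 fold change of miR-101a-3p was -0.05 (SE 0.308, adjusted p = 0.994 by edgeR), that of miR-101b-3p was -0.03 (SE 0.157) and that of miR-101a-5p was -0.15 (SE 0.204). These p-values do not show that the levels were equal. Without control replicate 1 the log2 fold change of miR-101a-3p was 0.16 and without LPS replicate 2 it was 0.17, so its sign rested on single samples. In bulk samples, a change in the share of cells and a change in RNA per cell cannot be told apart.

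End variants, each distinct read being 1 feature, gave the same count. Of 2204 variants of all arms, 0 (0%) passed an adjusted p of 0.05 by edgeR, with 53 higher and 8 lower at an unadjusted p under 0.05, and DESeq2 called 0. Of the family, 49 variants were tested, 0 were called and 0 had an unadjusted p under 0.05. Their log2 fold changes ran from -0.60 to 0.46 with a median of -0.03, beside a median of 0.00 over all variants. The CT-tailed T-start read had a log2 fold change of -0.12 (SE 0.345) and the G-start read of 22 nt one of -0.03 (SE 0.233). Variants that did not pass the filter were not tested.

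Measures taken within a library do not depend on its depth. The share of T starts in miR-101a-3p was 60.5% ± 3.23 (SD, n = 3) in control and 60.7% ± 3.19 in LPS samples, a difference of 0.234 points (exact permutation test, two-sided, p = 1). The share of G starts in miR-101b-3p was 62.4% ± 1.4202 and 62.7% ± 0.743, a difference of 0.236 points (exact permutation p = 0.9). Reads of both 3p arms with unmatched bases made up 50.6% ± 3.36 in control and 49.3% ± 3.77 in LPS samples, a difference of -1.22 points (exact permutation p = 0.5).

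The log2 ratio of miR-101b-3p to miR-101a-3p was -3.16 ± 0.315 in control and -3.11 ± 0.316 in LPS samples (exact permutation p = 0.7), and that of the 3p to the 5p arm of Mir101a was 7.45 ± 0.199 and 7.50 ± 0.469 (exact permutation p = 0.9). All 5 differences were smaller than the SD between the samples of a group. Taken by replicate number, the share with unmatched bases was lower in the LPS sample of all 3 pairs, by a mean of -1.22 ± 0.452 points (SD, n = 3 pairs, exact sign-flip permutation p = 0.25), and the log2 ratio of miR-101b-3p to miR-101a-3p was higher in all 3, by 0.05 ± 0.0416 (exact sign-flip permutation p = 0.25). The smallest p that 3 pairs allow is 0.25, and the other 3 measures had pairs of both signs (paired p = 1 by the exact permutation). With 3 samples against 3 the smallest possible p is 0.1, so none of these 5 tests could have passed 0.05, and the Benjamini-Hochberg adjusted permutation p over the 5 was 1 for each.

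Other miRNAs that target the same genes were read from the same fit as lists. Of 5 miRNAs known to target Ezh2, 3 were tested and 0 called, with a median log2 fold change of 0.09 beside 0.00 for all arms. miR-26a-5p had 19090 to 25618 RPM and a log2 fold change of -0.09 (SE 0.159), and miR-26b-5p had 3701 to 7219 RPM and one of 0.30 (SE 0.252). miR-26a-5p was thus the only member of this list above miR-101a-3p in every sample. Of 12 miRNAs known to target Abca1, 8 were tested and 0 called, with a median of -0.08, and 4 had no read. miR-33-5p, made from an intron of Srebf2, had 19.88 to 77.97 RPM and a log2 fold change of 0.46 (SE 0.487), and miR-10b-5p had 3.156 to 7.002 RPM and one of -0.62 (SE 0.315). miR-27b-3p, at 127270 to 190756 RPM the most abundant of the list, had one of -0.20 (SE 0.179).

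The arms whose log2 level over the 6 samples was most like that of miR-101a-3p, among 140 arms with a mean of at least 100 RPM, were miR-148a-3p (Pearson r = 0.995), miR-26a-5p (0.981), miR-1839-5p (0.972), miR-532-5p (0.970) and miR-223-5p (0.963). miR-101b-3p came 19th with 0.806. These are descriptions over 6 libraries of unequal depth, and each of the 5 was lowest in LPS replicate 2, as miR-101a-3p was.

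The seeds of both starts can be read against target sequences. The complement of the T-start seed is GTACTGT and that of the G-start seed is TACTGTA, which overlap in TACTGT, the match to bases 2 to 7 of the T-start form. On the sense strand of the longest annotated 3′ UTR of 21020 protein-coding genes (GENCODE M21, median length 961 bases), 9.38% held GTACTGT, 12.2% held TACTGTA and 4.28% held both. Sites are printed for 5 genes known as targets of miR-101, with the matching bases in capitals and the strand of the mRNA.
Ezh2, chr6:47530473-47530496, minus strand: ttcaggaaccttgaGTACTGTggg
Ezh2, chr6:47530418-47530441, minus strand: tctgaatttgcaaaGTACTGTAac
Dusp1, chr17:26505790-26505813, minus strand: aattttgtgtttgcGTACTGTAct
Ptgs2, chr1:150107387-150107410, plus strand: cattatcagctgagGTACTGTAta
Mcl1, chr3:95660928-95660951, plus strand: ttaacagtccagttcTACTGTAgc
Abca1, chr4:53033818-53033841, minus strand: gaagaacaaactggaTACTGTAct
Abca1, chr4:53031388-53031411, minus strand: aaacaaacctcaaacTACTGTAtt
The sites of Dusp1 and of Ptgs2, which encodes the prostaglandin synthase COX-2, and 1 of the 2 in Ezh2 match both seeds. The sites of Mcl1, which encodes a survival factor of the Bcl-2 family, and both of Abca1 match the 7 bases of the G-start seed and 6 of the T-start seed. TACTGTA is also the complement of bases 1 to 7 of the T-start form, so these sites do not set the 2 forms apart. These matches are descriptions of letters, since no mRNA was measured in these samples.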

How the data were processed

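Small RNA of 6 BMM samples was sequenced by the study (TruSeq small RNA libraries, HiSeq 1000), and the authors removed adaptors with custom perl scripts and Btrim64. The deposited files hold raw counts of each distinct trimmed read of 11 to 40 nt. The labels name the build mm9, but the files give no coordinates, so GENCODE M21 (GRCm38) was used for positions and RefSeq for mature sequences. All 7 mature sequences looked up were found there by name, and no genome sequence was used here. The labels give DMEM and the study's methods RPMI as medium.

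Reads of 18 nt or more were matched exactly to 1174 hairpins from the 5′ end, with up to 3 unmatched 3′ bases allowed, and scaled to all hairpin reads (1498849 to 10927393 a sample). At the edge of this rule, the family's 3p arms had 377 reads of 18 nt and 57 of 17 nt, and 160 reads with 3 and 42 with 4 unmatched bases. Sequencing errors at the 3′ end also count as unmatched, and counts were not corrected for adaptor ligation, which favours some ends. Counts of arms and of end variants were tested with edgeR 4.0.16 (R 4.3.3; TMM, filterByExpr, quasi-likelihood test), with DESeq2 1.42.0 as an alternative. Shares were compared by exact permutation tests (scipy 1.17.1). The 3p to 5p ratio used a pseudocount of 0.5 reads. The mapping and fits were tested on simulated data. The members and lists were chosen with earlier results of these data known. The text names all family arms with reads, their variants of at least 1% of the arm as counts or examples, miR-144, 5 arms most like miR-101a-3p, and list examples. The target genes were chosen as known targets after the reads were seen.

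Replicate numbers in the titles are shared by both groups. Deviations from the group means over 140 arms correlated at 0.733, 0.221 and 0.141 for equal numbers, and from -0.593 to 0.353 for unequal ones. The value of 0.353, for control replicate 3 and LPS replicate 2, lay above 0.221 and 0.141. Whether the numbers pair the samples is thus not settled. The main fits leave the numbers out, and fits with the replicate block are alternatives. LPS replicate 2 stood apart in depth.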

Additional observations from a re-analysis of the deposited data

How the results depend on the processing

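With no filter on low counts, edgeR called 21 of 973 arms and 148 of 22272 end variants, all higher with LPS and none of the family, and the cause was not tested. Under the other alternatives tried (DESeq2, upper-quartile scaling, library totals, at least 10 counts in every sample, exact matches only, reads of 20 nt or more, the replicate block, and each sample left out), 0 arms and 0 variants were called. The replicate block takes samples with equal replicate numbers as pairs. With it, the log2 fold change of miR-101a-3p was -0.10 (SE 0.119, edgeR adjusted p = 0.854) and that of miR-101b-3p -0.05. The block changed no call. The signs of the small differences were not stable. With reads of 20 nt or more, the G-start share of miR-101b-3p differed by -0.365 points, and with only tails of 1 base counted the share of unmatched ends differed by 0.314 points.

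Leaving out 1 sample at a time gave log2 fold changes of -0.33 to 0.17 for miR-101a-3p, -0.12 to 0.0804 for miR-101b-3p, -0.26 to -0.05 for miR-101a-5p, -0.52 to 0.17 for the CT-tailed T-start read and -0.18 to 0.18 for the G-start read of 22 nt. The T-start share of miR-101a-3p then differed by -1.46 to 2.09 points, the G-start share of miR-101b-3p by -0.397 to 1.00 points and the share of unmatched ends by -3.39 to 0.724 points. The log2 ratio of miR-101b-3p to miR-101a-3p differed by -0.12 to 0.21, and the 3p to 5p ratio of Mir101a by -0.21 to 0.24. Among the listed miRNAs, the log2 fold change ran from -0.25 to 0.0778 for miR-148a-3p, -0.20 to 0.0162 for miR-26a-5p, 0.0583 to 0.52 for miR-26b-5p, -0.34 to -0.0593 for miR-27b-3p, -0.79 to -0.43 for miR-10b-5p and -0.23 to 0.82 for miR-33-5p, whose lowest value was without LPS replicate 2. A left-out replicate leaves 2 samples in a group. Counts of 51 to 290 reads limit the precision of miR-101a-5p.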

Other observations

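Reads that hold the loop of Mir101a together with its 3p arm were also present. They begin at base 36 of the hairpin, right after the annotated end of miR-101a-5p, and reach the 3p end, with a length of 36 to 38 nt. There were 18, 11 and 19 such reads in the control and 36, 21 and 5 in the LPS samples, 110 in all. The commonest of them, with 56 reads, was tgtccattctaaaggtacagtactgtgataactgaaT, where the capital marks the unmatched base. With all samples pooled, a tail of a single T ended 50.9% of these reads, a single A 25.5% (28 reads) and a CT tail 3.64% (4 reads). In the T-start reads of miR-101a-3p, single T and CT tails had means of 20.1% and 37.6% over the 6 samples. The loop reads with a single T tail numbered 9, 3 and 10 in the control and 13, 18 and 3 in the LPS samples. No miR-101b-3p read was 30 nt or longer.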
